A study of Mus musculus with 4 samples.

Results

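Natural killer (NK) cells were picked out of single-cell transcriptomes of mouse prostate tumours by the counts of a few genes, and 120 of the 3381 cells kept from 3508 barcodes met the rule. A cell was a member if its unique molecular identifiers (UMIs, each standing for 1 captured transcript) of Ncr1, Klrb1c and Klre1 summed to at least 2, those of Cd3d, Cd3e and Cd3g to at most 1, and those of Foxp3 and Trac to 0. Members numbered 44 and 35 in the TKO libraries and 7 and 34 in the DKO libraries (replicates 1 and 2 of each, in that order here and below). Barcodes with fewer than 200 genes, or with over 20% of their UMIs from mitochondrial genes, had been dropped. Only 99 of the 120 carried NK markers without many transcripts of another cell type. The other 21 held many transcripts of another cell type, and comparisons are given with and without them.

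NK cells are innate lymphocytes that kill stressed, infected or transformed cells without an antigen receptor of their own. They weigh signals from activating receptors such as Ncr1 (NKp46) and Klrk1 (NKG2D) against inhibitory receptors that read MHC class I, and they kill with perforin and granzymes held in granules. They also secrete interferon gamma and chemokines such as Xcl1 and Ccl5, which act on dendritic cells and T cells, and in tissues they stand beside related type 1 innate lymphoid cells (ILC1), which share many of their genes.

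TKO tumours (nTKOLuc, 2 libraries) and DKO tumours (nDKOLuc, 2 libraries) both carried Nkx3.1CreERT2 with floxed alleles that include Smad4, and TKO tumours also carried floxed Pygo2. The Cre is a tamoxifen-inducible one driven by Nkx3.1, a gene of prostate epithelium, so NK cells are not the cells in which it is driven. Tumours were taken 10 or 17 weeks after tamoxifen, and no label ties a library to either time. Suspensions went through red cell lysis and Annexin V removal of dying cells, were labelled with hashtag antibodies and were loaded together, so the cells described are those that came through these steps. The labels do not state whether 2 libraries of 1 genotype stem from 2 different animals. The p-values below therefore speak of library-to-library spread, part or all of which may be technical.

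The 2 TKO libraries held 1208 and 797 kept cells and the 2 DKO libraries 617 and 759. Their members summed to 832979 and 543422 UMIs in TKO and to 160098 and 894818 UMIs in DKO, so DKO replicate 1, with 7 cells, is by far the thinnest. Median depth per member was 13235 and 12321 UMIs in TKO and 18662 and 19785.5 UMIs in DKO, higher in both DKO libraries. Every member had the hashtag of its own library as its highest, and no barcode was shared between libraries. Pygo2 transcript in members was too sparse to check a label, with 7, 3, 0 and 6 UMIs in the TKO and then the DKO libraries among the 99 cells. Smad4 transcript was found in 71 of these 99 cells.

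The 21 cells set apart were those with at least 100 UMIs of a marker list of another cell type, or at least 10 UMIs of Siglech, a gene of plasmacytoid dendritic cells. This limit was set after the data were seen. They numbered 7 and 5 in TKO and 2 and 7 in DKO, and because they were large they gave 34.7% and 29.1% of all member UMIs in TKO and 43.9% and 46.1% in DKO. Of them, 15 had a dendritic marker sum between 404 and 2520 UMIs, where the next highest member had 92. Cd74, the invariant chain of MHC class II, gave 197 to 1450 UMIs in each of the 15, while Nkg7, a granule protein of killer cells, gave at most 1 and Ncr1 gave 0. These cells had been admitted by Klre1 alone in 14 of 15 cases.

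Klre1, which encodes an NK lectin-like receptor, was therefore looked at in dendritic cells. A Klre1 UMI was present in 54 of 259 cells with a dendritic marker sum of 400 or more (20.8%, exact 95% interval 16.1% to 26.3%), against 12 of 1279 cells with a neutrophil marker sum of 100 or more (0.938%). Median depth was 30009 UMIs in the dendritic cells and 7180 UMIs in the neutrophils. By library the dendritic share was 22.9% and 15.8% in TKO and 19.0% and 23.5% in DKO. Ncr1 was found in 3 of the same 259 cells. Klre1 UMIs thus occurred in dendritic cells of every library, at 7.40 to 15.95 CPM (UMIs of the gene scaled to a common total over a class of cells in a library), far below the 294 to 527 CPM of the 99 NK cells.

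**Figure D1:**
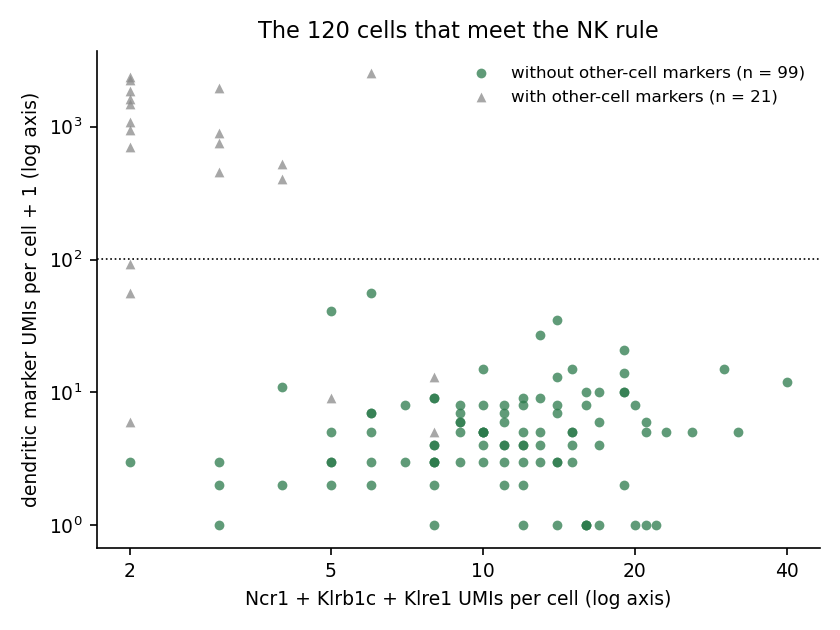
Each point is 1 of the 120 cells that met the rule, with the summed UMIs of Ncr1, Klrb1c and Klre1 on the horizontal log axis and the summed UMIs of 10 dendritic markers plus 1 on the vertical log axis. Circles are the 99 cells without other-cell markers and triangles the 21 cells with them, and the dotted line marks a dendritic sum of 100. Most triangles stand at low NK sums and high dendritic sums.

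Cells near the edge of the rule mostly carried markers of other cells. Among 63 cells with an NK sum of 1, just outside, 53 carried other-cell markers, and so did 11 of the 12 cells with a sum of 2, just inside. Of the 91 members with a sum of 6 or more, 3 carried them. On the T cell side, 22 cells met every condition except for a Trac UMI, and 18 of them had a Gzma UMI. Another 92 cells had an NK sum of at least 2 together with a Cd3 sum of at least 2 and no Foxp3, and these were left out as the rule asks.

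Markers of other lineages were low in the 99 cells. Neutrophil markers summed to at most 10 UMIs per cell, macrophage and monocyte markers to at most 41, fibroblast and endothelial markers to at most 24, and epithelial markers to at most 73. The dendritic list reached 55 UMIs, with 4 of its 10 genes at 0. The T cell list had a median of 8 UMIs per cell. CD8 T cells were set beside them here and below, also without cells carrying other-cell markers (202 cells with a Cd3 sum of at least 2, a Cd8a and Cd8b1 sum of at least 2, no Cd4 or Foxp3, and an NK sum of at most 1). Trbc1 gave most of the T cell list, at 399 and 433 CPM in TKO and 423 and 297 CPM in DKO, beside 441 to 779 in CD8 T cells. Bcl11b, a T cell identity factor, gave 0 to 33.4 CPM in the 99 cells, against 224 to 376 in CD8 T cells.

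The 6 markers given for the cells were looked at next, bearing in mind that Ncr1, Klrb1c and Klre1 chose the members. Among the 99 cells, Ncr1 was detected in 87, Klrb1c (NK1.1) in 85 and Klre1 in 89. Markers that the rule did not use were also common: Prf1 (perforin) in 81, Xcl1 in 80 and Gzma (granzyme A) in 72. Of the 202 CD8 T cells, Prf1 was detected in 76, Xcl1 in 60 and Gzma in 31. The name NK cells is therefore used for the 99, although ILC1 share many of these genes and the rule cannot separate them. The 15 cells with dendritic markers went against that name.

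In the mm10 annotation (GENCODE), Ncr1 lies on chromosome 7 at 4337724 to 4345164 and Gzma on chromosome 13 at 113093825 to 113100981. Klrb1c, Klre1 and Klrk1 lie in the NK receptor cluster of chromosome 6, at 128778485 to 128789215, 129577905 to 129585827 and 129610323 to 129623864. Prf1 lies on chromosome 10 at 61297833 to 61304680 and Xcl1 on chromosome 1 at 164931644 to 164935527. The promoters of 4 of these markers are shown because all 6 were searched for the core motif of RUNX factors (TGTGGT, or ACCACA on the other strand), a family that acts in NK cells and whose member Runx3 gave 651 to 925 CPM in the 99 cells. Each runs from 250 bases before to 50 bases after the start, on the gene's strand, from RefSeq (GRCm38.p6), with the motif in capitals. RefSeq lists 2 starts each for Ncr1 and Klre1, of which the first is used. For Klre1 both lie downstream of the GENCODE start given above, and the window of its other start (129578036 to 129578335) does not hold the motif.
Ncr1, chr7:4337465-4337764, plus strand: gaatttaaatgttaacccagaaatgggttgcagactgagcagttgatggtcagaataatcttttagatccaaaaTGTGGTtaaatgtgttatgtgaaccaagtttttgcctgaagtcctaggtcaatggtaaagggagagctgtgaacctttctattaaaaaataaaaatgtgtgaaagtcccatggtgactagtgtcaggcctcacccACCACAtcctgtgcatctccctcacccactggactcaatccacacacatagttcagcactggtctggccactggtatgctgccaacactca
Klre1, chr6:129577963-129578262, plus strand: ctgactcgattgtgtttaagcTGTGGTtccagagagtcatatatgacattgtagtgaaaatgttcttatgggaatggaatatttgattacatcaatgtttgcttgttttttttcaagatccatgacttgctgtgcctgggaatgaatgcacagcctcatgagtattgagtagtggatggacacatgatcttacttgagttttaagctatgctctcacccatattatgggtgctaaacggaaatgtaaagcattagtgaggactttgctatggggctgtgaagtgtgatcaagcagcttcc
Gzma, chr13:113100932-113101231, minus strand: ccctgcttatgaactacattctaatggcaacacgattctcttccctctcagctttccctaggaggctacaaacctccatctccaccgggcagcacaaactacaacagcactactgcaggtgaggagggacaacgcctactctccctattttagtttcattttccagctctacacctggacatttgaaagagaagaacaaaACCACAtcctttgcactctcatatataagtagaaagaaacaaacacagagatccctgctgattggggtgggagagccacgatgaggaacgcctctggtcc
Xcl1, chr1:164935473-164935772, minus strand: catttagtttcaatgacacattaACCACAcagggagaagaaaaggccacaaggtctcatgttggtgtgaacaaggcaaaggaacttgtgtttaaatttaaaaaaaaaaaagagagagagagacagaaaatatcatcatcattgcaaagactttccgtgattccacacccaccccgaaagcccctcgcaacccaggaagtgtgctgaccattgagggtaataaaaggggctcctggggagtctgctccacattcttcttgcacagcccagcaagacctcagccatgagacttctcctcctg
At the first listed start all 6 of the 6 marker promoters held the motif on 1 strand or the other, while 4573 of 27025 promoters of all genes held it (16.9%). A match of these letters is a description of the sequence and not a binding site.

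The killing machinery was present in most NK cells, and levels were compared with CD8 T cells as a description with no test, since the members were chosen by their own counts. Levels are in CPM, per class and library. Prf1 gave 340 and 400 CPM in NK cells of TKO and 44.6 and 174 in NK cells of DKO, against 23.5 to 40.7 in CD8 T cells over the 4 libraries. Serpinb6b and Serpinb9, inhibitors that protect killer cells from their own granule proteases, gave 201 to 610 and 524 to 999 CPM, against 173 to 197 and 191 to 323 in CD8 T cells. Ctsw, a granule cathepsin, gave 412 to 546, against 254 to 394. These ranges did not overlap between the classes, but Prf1 (44.6 against 40.7) and Serpinb6b (201 against 197) came close. Both low NK values are from DKO replicate 1, where 3 UMIs already make 33.4 CPM. Nkg7 (1188 to 1502 CPM, against 1258 to 1482 in CD8 T cells) and Fasl, the ligand of the death receptor Fas (145 to 228, against 157 to 247), did overlap.

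Granzymes differed from gene to gene. Gzma gave 2450 and 3269 CPM in TKO and 323 and 1213 in DKO. Over all 214 CD8 T cells pooled, other-cell markers or not, Gzma gave 672 CPM, above the NK level in DKO replicate 1. Gzmb gave 864 and 682 in TKO and 22.3 and 971 in DKO, and Gzmc, known from strongly activated killer cells, gave 211 and 433 in TKO and 11.1 and 1024 in DKO. Gzmb and Gzmc were thus high in both TKO libraries and in DKO replicate 2, and near 0 in DKO replicate 1. Gzmc rested on few cells, being detected in 21 of 99, and 5 cells held 50 or more Gzmb UMIs each. Gzmk, a granzyme of memory-like T cells, was almost absent, at 1.84 to 11.1 CPM against 159 to 318 in CD8 T cells.

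Among secreted factors, Ccl5 gave 3869 and 3907 CPM in TKO and 1515 and 2679 in DKO. Xcl1, the ligand of the dendritic receptor Xcr1, gave 1623 and 846 in TKO and 412 and 1074 in DKO. In CD8 T cells it gave 294 and 333 in TKO and 23.5 and 449 in DKO, so the classes overlapped. Tgfb1, which encodes transforming growth factor beta 1, gave 572 to 704, against 275 to 306. Vegfa, the angiogenic growth factor, gave 223 to 415, against 11.3 to 31.5. Interferon gamma transcript was sparse. Ifng was detected in 24 of 99 cells, at 53.3 and 28.5 CPM in TKO and 0 and 33.2 in DKO, where the count of 0 among 89747 UMIs of DKO replicate 1 allows up to 33.4.

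Genes were also ranked by the ratio of the lowest NK level to the highest level in CD8 T cells and other Cd3 lymphocytes, all without cells carrying other-cell markers. Ncr1, Klrb1c and Klre1 are set aside here, since the rules for NK and CD8 T cells used them. The leading genes were then Klra4, Rab27b, Klra8, Tyrobp, Fcer1g, Irf8, Hhex, Itgax, Styk1 and Vegfa. Klra8 (Ly49H), an activating receptor, gave 520 and 625 CPM in TKO and 490 and 301 in DKO, and 0 in CD8 T cells of every library. Klra4 gave 531 and 501 in TKO and 624 and 280 in DKO. The Klra genes are near-identical copies that share reads, so the split among them is uncertain. Rab27b, a small GTPase of granule release, gave 272 to 346, and Hhex, a homeobox factor, gave 82.7 to 139. Klrk1 gave 325 and 330 in TKO and 223 and 278 in DKO. In CD8 T cells it gave 54.4 and 40.8 in TKO and 282 and 164 in DKO, so it overlapped between the classes.

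Signalling partners of these receptors and cytokine receptors were also high. The adaptors Tyrobp (DAP12) and Fcer1g gave 948 to 1421 and 1092 to 1647 CPM, against 20.4 to 146 and 11.8 to 214 in CD8 T cells. Il2rb, the receptor chain through which interleukin 15 keeps NK cells alive, was detected in all 99 cells at 1036 to 1439, against 468 to 675. Il12rb2, a chain of the interleukin 12 receptor, gave 256 to 511, against 52.1 to 194. Checkpoint receptors were low. Pdcd1 (PD-1) gave 0 to 33.7 against 341 to 755 in CD8 T cells, and Ctla4 gave 11.1 to 67.5 against 182 to 329. Havcr2 (TIM-3) had 3 UMIs among the 99 cells.

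**Figure D2:**
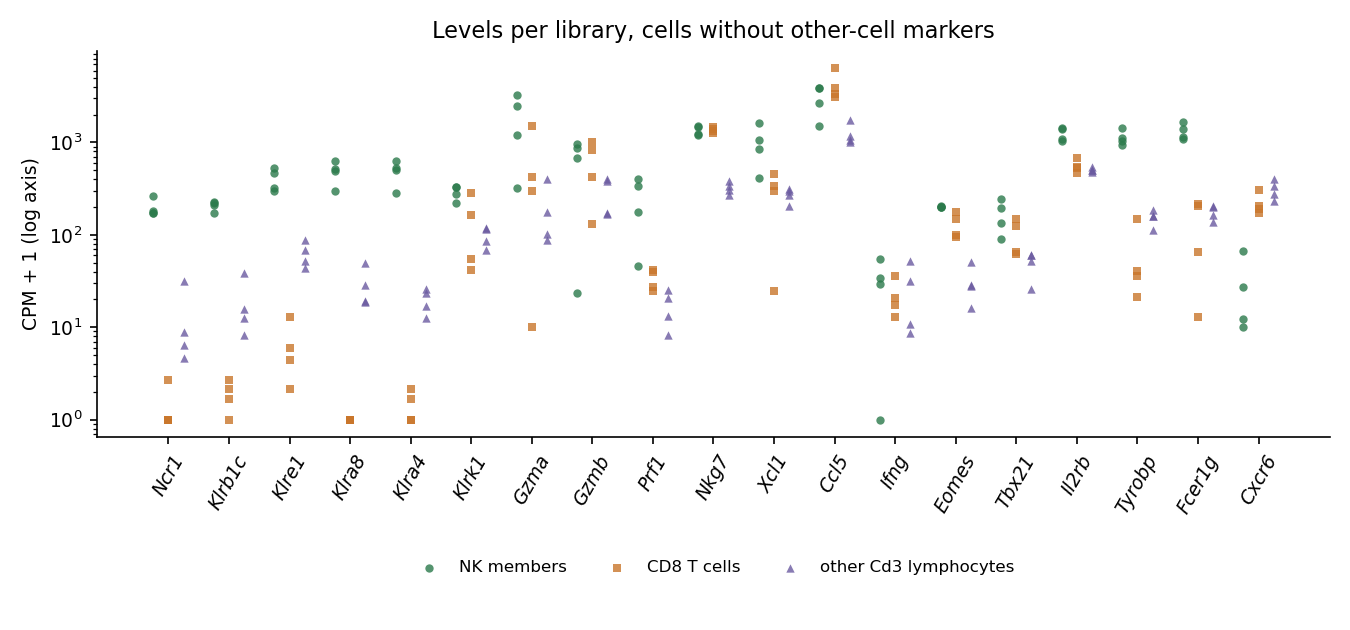
The vertical log axis gives CPM plus 1 for each gene on the horizontal axis, with 1 point per library for NK cells (circles), CD8 T cells (squares) and other Cd3 lymphocytes (triangles), all without cells carrying other-cell markers. Ncr1, Klrb1c and Klre1 chose the cells, and the Klra genes stand apart in NK cells. Nkg7, Ccl5, Xcl1 and Klrk1 are among the genes that overlap with CD8 T cells, and Cxcr6 is lowest in NK cells.

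Factors that set NK identity were measured in most cells. Eomes, required for conventional NK cells, was even across libraries at 206 and 197 CPM in TKO and 201 and 197 in DKO. In DKO replicate 1 an Eomes UMI was found in 3 of 5 cells, with a median of 1 UMI and a highest count of 13, so that level rests largely on 1 cell. Tbx21 (T-bet) gave 195 and 244 in TKO and 89.1 and 135 in DKO. Irf8 gave 967 and 861 in TKO and 501 and 817 in DKO, against 5.88 to 106 in CD8 T cells. By cell, 51 of 99 had UMIs of both Eomes and Tbx21, 23 of Eomes alone, 24 of Tbx21 alone and 1 of neither. Cells with Tbx21 but no Eomes UMI, the combination described for ILC1, had 10 or more Gzma UMIs in 7 of 24 cases. Cells with both factors had as many in 36 of 51 cases. Itga1 (CD49a), an ILC1 integrin, was detected in 22 cells, and Zfp683 in 1 cell.

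The 99 cells spanned a wide range of granzyme A. Gzma gave 0 to 211 UMIs per cell, with a median of 19. A range of 10 or more UMIs held 56 cells, a range of 0 or 1 held 30 cells, and 13 cells lay between. The limits were set after the values were seen, so what follows is a description with no test. Cells of the high range held less RNA, with a median of 11223.5 UMIs against 19200.5 UMIs in the low range, and means are therefore given per cell thinned to 4000 UMIs.

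Cells with high Gzma carried more of several mature killer genes, but not of every such gene. Prf1 averaged 2.98 UMIs in the high range and 0.367 in the low range, and Ccl5 averaged 30.3 and 5.5. Eomes averaged 1.07 and 0.367, Klf2, a factor of circulating lymphocytes, 1.18 and 0.4, Itga2 (CD49b) 0.946 and 0.233, and Itgam (CD11b) 0.536 and 0.0667. Other genes differed less or the other way. Gzmb averaged 3.46 and 2.73, Cd27 0.554 and 0.467, Zeb2 0.446 and 0.5, and Klra8 1.93 and 2.27. Cma1, a chymase known from mast cells, was found in 18 of the 56 cells of the high range and in none of the others, while mast cell markers as a list summed to at most 6 UMIs in any of the 99 cells. Cells with low Gzma carried more Xcl1 (5.87, against 3.32 in the high range), Rora (1.8, against 0.607), Inpp4b (2.07, against 0.143), Tnfrsf9, the costimulatory receptor 4-1BB (2.6, against 0.875), Kit (0.633, against 0.0893) and Lgals3 (1.63, against 0.518). Genes of ILC1 and tissue residence also averaged more in the low range, among them Itga1 (0.2, against 0.0536) and Cxcr6 (0.367, against 0). The same held for Itgae (0.233, against 0) and Tmem176b (0.367, against 0.0536). Whether cells of the low range are ILC1 was not tested. Ncr1 averaged 0.839 in the high range and 0.933 in the low range.

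High-Gzma cells made up 62.2% (23 of 37) and 70.0% (21 of 30) of the NK cells in TKO, against 1 of 5 cells and 40.7% (11 of 27) in DKO. Exact 95% intervals ran from 44.8% to 77.5% and from 50.6% to 85.3% in TKO, and from 0.505% to 71.6% and from 22.4% to 61.2% in DKO, so the intervals overlapped. With 4 or more UMIs after thinning as the limit, the shares were 59.5% and 63.3% in TKO and 1 of 5 cells and 37.0% in DKO. Both TKO libraries lay above both DKO libraries either way. Intervals cover counting error only.

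**Figure D3:**
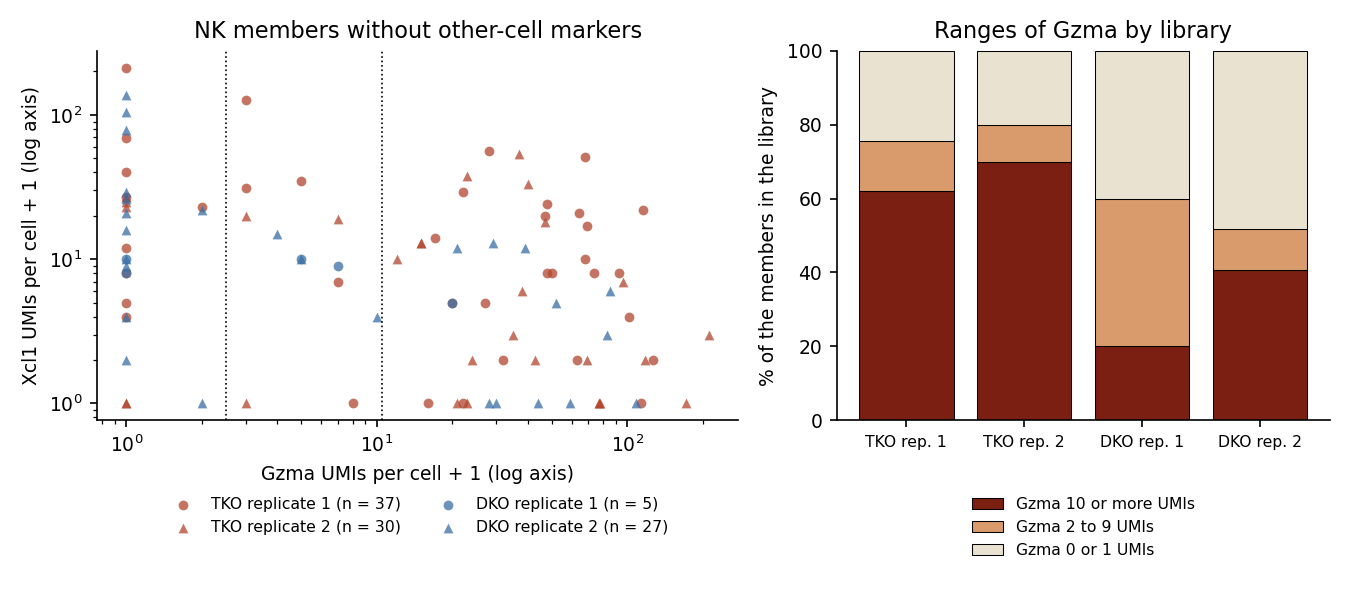
Left, Gzma against Xcl1 UMIs per cell plus 1 on log axes, with 1 point for each of the 99 NK cells without other-cell markers, coloured by genotype and shaped by replicate, and dotted lines at the limits of the ranges. Right, the percentage of each library's cells in each range of Gzma, with 62.2% and 70.0% at 10 or more UMIs in TKO, against 1 of 5 cells and 40.7% in DKO.

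The abundance of NK cells was compared between the genotypes next. NK cells made up 3.64% (44 of 1208) and 4.39% (35 of 797) of kept cells in TKO and 1.13% (7 of 617) and 4.48% (34 of 759) in DKO. DKO replicate 1 was low, and the other 3 libraries lay within 1 percentage point of each other. Means were 4.02% ± 0.53 in TKO and 2.81% ± 2.37 in DKO (SD, n = 2 each), and a two-sided exact permutation test over the 4 libraries gave p = 1, where the smallest it can give is 0.333. Among lymphocytes (members plus cells with a Cd3 sum of at least 2) the share was 11.03% and 10.9% in TKO and 5.07% and 11.7% in DKO (exact permutation p = 1).

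Without the 21 cells the shares of kept cells were 3.06% and 3.76% in TKO and 0.810% and 3.56% in DKO (exact permutation p = 0.667). All CD8 T cells, other-cell markers or not (214 cells), made up 8.86% and 6.90% of kept cells in TKO and 2.43% and 4.87% in DKO (exact permutation p = 0.333). With DKO replicate 1 left out, the difference in NK share turned to -0.46 percentage points, TKO minus DKO. DKO members were deeper, and with every kept cell thinned to 2000 UMIs before the rule was applied the shares were 2.63% and 3.14% in TKO and 0.167% and 2.03% in DKO. With a Cd3 sum of 0 required they were 3.39% and 4.02% in TKO and 0.810% and 3.16% in DKO. In both settings the 2 TKO shares lay above the 2 DKO shares (exact permutation p = 0.333).

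**Figure D4:**
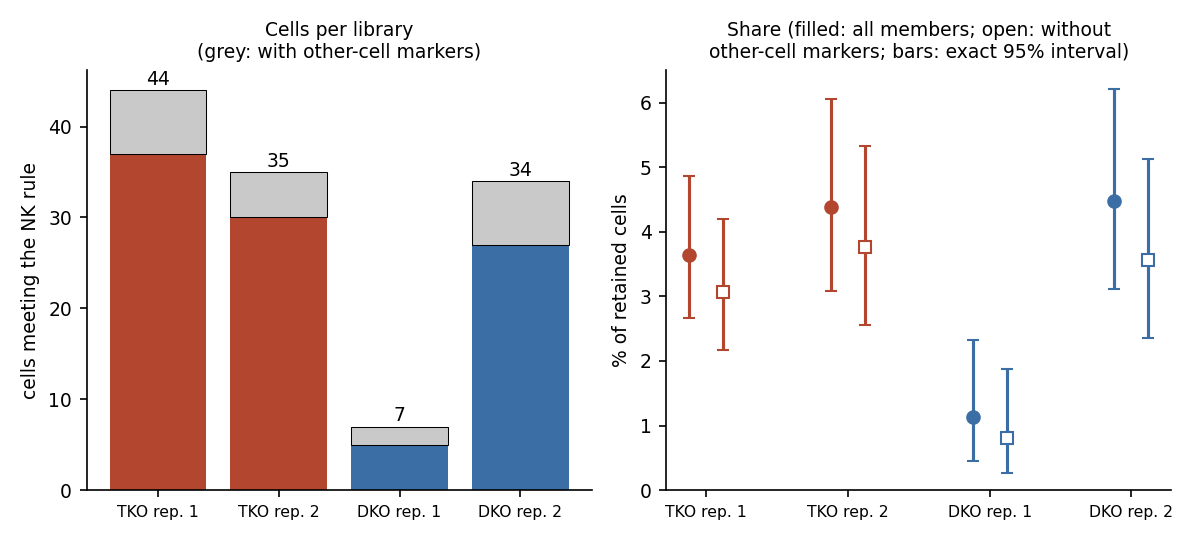
Left, the number of cells that met the NK rule in each library, with the cells that carry other-cell markers in grey on top. Right, their percentage of kept cells with exact 95% binomial intervals, filled for all members and open for those without other-cell markers, where DKO replicate 1 stands below the other 3 libraries.

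UMIs of cell division genes were compared at full depth and at equal depth. The share of members with at least 3 UMIs over 26 cell division genes was 33 of 44 and 26 of 35 in TKO and 7 of 7 and 32 of 34 in DKO (exact permutation p = 0.333). With members thinned to 2000 UMIs it was 9.09% and 5.71% in TKO and 14.3% and 17.6% in DKO (exact permutation p = 0.333). Among the 99 cells thinned to 4000 UMIs such cells were 14 of 37 and 10 of 30 in TKO and 1 of 5 and 11 of 27 in DKO, with the difference in means in the other direction. Mki67, the proliferation marker, was detected in 3 of the 99 cells, so the sum is not read as a count of dividing cells.

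Gene expression in NK cells was compared between TKO and DKO on UMIs summed per library. Over all 120 members no gene passed edgeR's quasi-likelihood test with Benjamini-Hochberg adjustment at 0.05 (0% of 7425 genes tested). Before adjustment 127 genes had p under 0.05 with TKO higher (1.71%) and 115 with TKO lower (1.55%), and DESeq2 called 3 genes. Counts this small have limited reach, since in simulated data of the same size 48.5% of genes changed 4-fold were recovered, and 0.5% of genes changed 2-fold.

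Among the 99 cells, 4 of 5728 genes passed (0.0698%), 2 higher and 2 lower in TKO. Before adjustment 153 genes had p under 0.05 with TKO higher (2.67%) and 191 with TKO lower (3.33%). This comparison, and the genes it called, were chosen after the data were seen. Ctse, which encodes the protease cathepsin E, gave 93.7 and 85.6 CPM in TKO and 11.1 and 10.4 in DKO. It was higher in both TKO libraries (log2 fold change 2.99 ± 0.54, SE, edgeR adjusted p = 0.022). Rad51b, a gene of homologous recombination repair, had 40 and 20 UMIs in TKO and 0 and 1 in DKO. The ratio of its summed levels was 36.9 (95% counting interval 6.38 to 1482), and the edgeR adjusted p was 0.022.

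Zmat4, a zinc finger gene, gave 3.68 and 33.7 CPM in TKO and 145 and 151 in DKO. It fell in TKO by 3.23 ± 0.54 on the log2 scale (SE, edgeR adjusted p = 0.022). Agap1, a regulator of endosomal traffic, gave 29.4 and 18.2 in TKO and 89.1 and 122 in DKO, and fell by 2.27 ± 0.42 (SE, edgeR adjusted p = 0.022). With each library left out in turn, 1 group holds 1 library, so a call kept there says nothing of that group's spread. Zmat4 then had log2 fold changes of -5.28 to -2.23. Leaving out TKO replicate 1 ended the calls of Rad51b and Ctse (edgeR adjusted p = 0.40 and 0.14). Leaving out DKO replicate 2 ended those of Rad51b (0.057), Ctse (0.11) and Agap1 (0.13), and Agap1 was also lost without TKO replicate 2 (0.30). With each of the 99 cells thinned to 4000 UMIs, 0 of 2381 genes passed (150 at an unadjusted p under 0.05). Zmat4 and Agap1 then had log2 fold changes of -3.65 and -2.60 (edgeR adjusted p = 0.78 each), and Ctse and Rad51b were too sparse to be tested.

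The 2 TKO libraries stood above the 2 DKO libraries in Prf1 and Gzma, and neither gene passed the adjusted threshold. How many of all genes tested had such an order of libraries was not counted, so the order is not read as support. Prf1, at the levels given above, had a log2 fold change of 1.36 ± 0.32 in the 99 cells (SE, edgeR adjusted p = 0.18) and 1.85 ± 0.49 over all members (edgeR adjusted p = 1.0). Gzma had 1.70 ± 0.52 in the 99 cells (edgeR adjusted p = 0.72) and 2.07 ± 0.60 over all members. Fits that leave out a library have 1 library in a group and cannot measure its spread, so effect sizes alone are given for them. In the 99 cells Gzma then had 1.19 with DKO replicate 1 left out and 3.0 with DKO replicate 2 left out. With the cells thinned to 4000 UMIs Gzma had 1.04 ± 0.48 and Prf1 0.95 ± 0.36 (SE, edgeR adjusted p = 0.78 each). Serpinb6b gave 610 and 553 CPM in TKO and 201 and 460 in DKO (log2 fold change 0.60 ± 0.28). Of 16 tested members of the cytotoxic list, 3 had p under 0.05 before adjustment with TKO higher and 0 with TKO lower, and the median log2 fold change was 0.12, beside 0.01 over all genes tested. Over all genes tested 2.67% had such a p with TKO higher and 3.33% with TKO lower, shares that also stand beside the lists below.

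Ccl5 had a log2 fold change of 0.77 ± 0.24 in the 99 cells (SE, edgeR adjusted p = 0.50). It had 0.48 ± 0.36 with the cells thinned as above. Its median per cell was 39 UMIs in both TKO libraries, and 3 and 42 UMIs in DKO. In DKO replicate 1 the highest cell held 117 of the 136 Ccl5 UMIs. Xcl1, whose libraries overlapped between the genotypes, had a log2 fold change of 0.57 ± 0.46, and 0.46 ± 0.34 when thinned. Areg, the epidermal growth factor receptor ligand amphiregulin, gave 11.03 and 18.2 CPM in TKO and 145 and 56.0 in DKO, with a log2 fold change of -2.59 ± 0.60 (edgeR adjusted p = 0.12). It was detected in 12 cells. Of 8 tested secreted factors, 1 had p under 0.05 before adjustment in each direction.

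No receptor gene passed the adjusted threshold in the 99 cells. Sh2d1a (SAP), the adaptor of SLAM family receptors, gave 80.9 and 62.3 CPM in TKO and 22.3 and 22.8 in DKO (log2 fold change 1.59 ± 0.49, edgeR adjusted p = 0.50). Klri2, a lectin-like receptor that pairs with Klre1, gave 167 and 202 in TKO and 66.9 and 87.1 in DKO (1.09 ± 0.32, edgeR adjusted p = 0.43). Both genes had both TKO libraries above both DKO libraries, an order that is not read as support. Of 19 tested activating receptors and adaptors 1 had p under 0.05 before adjustment with TKO higher, and of 14 in the inhibitory list 2, with 0 lower in either list. Klri2 was counted in the inhibitory list, although its dimer with Klre1 is known as an activating receptor. Il18rap, a chain of the interleukin 18 receptor, gave 156 and 223 in TKO and 33.4 and 104 in DKO (1.05 ± 0.35, edgeR adjusted p = 0.55). Log2 fold changes with the cells thinned as above were 0.49 ± 0.43 for Il18rap, 1.02 ± 0.44 for Klri2 and 2.02 ± 0.83 for Sh2d1a.

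Genes of conventional NK cells leaned towards TKO and genes of ILC1 and tissue residence towards DKO. Of 15 tested conventional NK genes, 14 had a positive log2 fold change in the 99 cells, 4 had p under 0.05 before adjustment with TKO higher and 0 with TKO lower, and the median was 0.52. Klf2 gave 158 and 259 CPM in TKO and 44.6 and 112 in DKO (log2 fold change 1.05 ± 0.34, edgeR adjusted p = 0.54). Its log2 fold change was 0.74 ± 0.43 with the cells thinned as above. Cma1 gave 27.6 and 46.7 CPM in TKO and 0 and 8.30 in DKO. Of 15 tested ILC1 and tissue-resident genes, 13 were negative, 4 had p under 0.05 before adjustment with TKO lower and 0 with TKO higher, and the median was -0.70. No member of either list passed the adjusted threshold, and the background shares of such p-values are the 2.67% and 3.33% above. Of all 5728 genes tested, 2888 had a positive log2 fold change and 2840 a negative one.

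Among the ILC1 genes, Tmem176b, a membrane protein gene, gave 29.4 and 57.1 CPM in TKO and 234 and 78.8 in DKO (log2 fold change -1.63 ± 0.51, edgeR adjusted p = 0.54). Its neighbour Tmem176a gave 31.3 and 44.1 in TKO and 89.1 and 78.8 in DKO (-1.21 ± 0.43). Cxcr6, a receptor for tissue retention, gave 9.19 and 25.9 in TKO and 11.1 and 66.4 in DKO, and its sign turned without DKO replicate 2. Inpp4b, a lipid phosphatase gene, gave 314 and 202 in TKO and 903 and 340 in DKO (-1.24 ± 0.52). Inpp4b, Tmem176b and Tmem176a had -0.42, -0.95 and -1.13 with DKO replicate 1 left out. With DKO replicate 2 left out they had -1.93, -2.62 and -1.40. Over all 120 members this list had a median of 0.01, with 2 genes at p under 0.05 in each direction, and Itgae turned from -1.31 in the 99 cells to 1.69.

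Activation genes and interferon genes had more members lower in TKO than higher. Of 21 tested activation and immediate early genes 18 were negative in the 99 cells, with 3 at p under 0.05 before adjustment (Fosb, Bhlhe40 and Nr4a3), 0 higher, and a median of -0.36. Over all 5728 genes tested 2840 were negative, and 3.33% had such a p with TKO lower. Bhlhe40, a factor of tissue lymphocytes, gave 160 and 205 CPM in TKO and 379 and 305 in DKO. Of 9 tested type I interferon genes 7 were negative, and 1 had p under 0.05 with TKO lower. This was Isg15, at 80.9 and 70.0 in TKO and 66.9 and 224 in DKO, so both TKO libraries lay above DKO replicate 1. Of 13 tested interferon gamma response genes 10 were negative, yet 1 had p under 0.05 with TKO higher and 0 with TKO lower. Mndal, a DNA sensor of the Ifi200 family, gave 175 and 119 in TKO and 66.9 and 14.5 in DKO and missed the threshold (log2 fold change 2.51 ± 0.51, edgeR adjusted p = 0.052). Rgcc, a cell cycle regulator, gave 40.4 and 41.5 in TKO and 167 and 112 in DKO (-1.72 ± 0.38, edgeR adjusted p = 0.089).

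**Figure D5:**
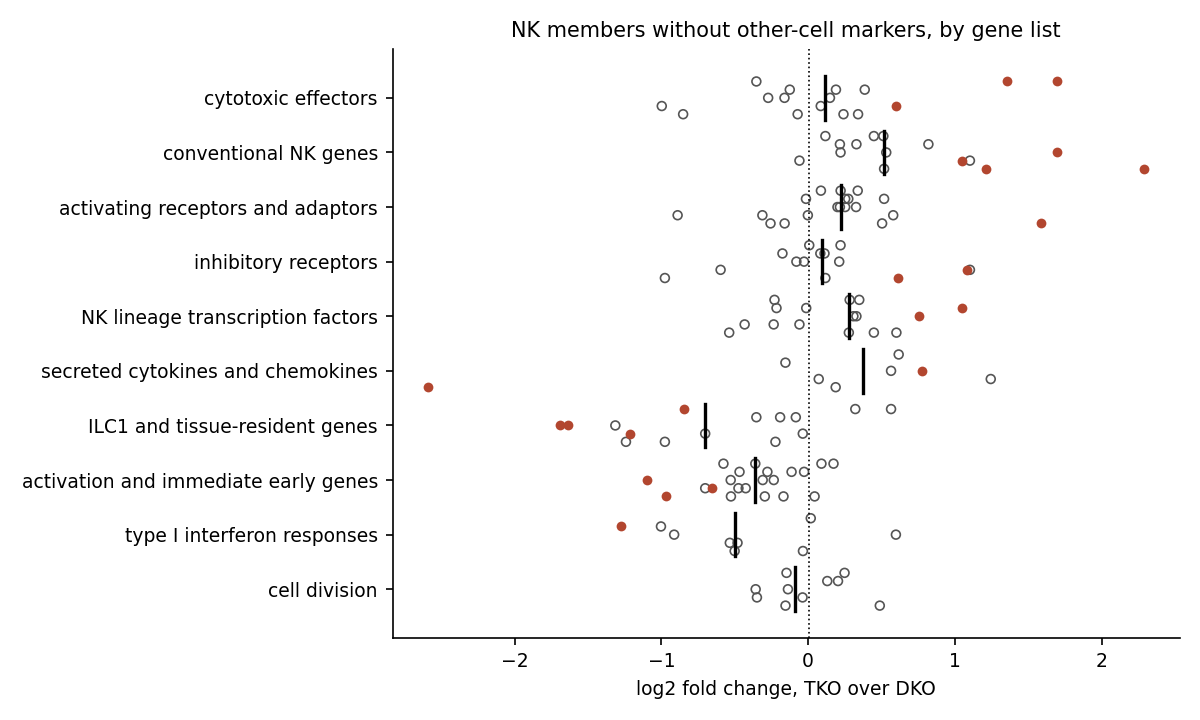
The horizontal axis is the log2 fold change of TKO over DKO in the 99 NK cells without other-cell markers, with 1 point per tested gene and 1 row per gene list. Filled points had p under 0.05 before adjustment, black bars are list medians and the dotted line is the median of all genes tested. Conventional NK genes lie mostly to the right (median 0.52) and ILC1 and tissue-resident genes mostly to the left (median -0.70).

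Several genes with the smallest p over all 120 members were not NK genes. Scin, an actin-severing protein gene, gave 45.6 and 84.7 CPM in TKO and 0 and 1.12 in DKO, and Cd209a, a dendritic cell lectin, gave 58.8 and 151 in TKO and 18.7 and 10.1 in DKO. In the 99 cells Scin had 1 UMI in all and Cd209a 0. Rtn1, lower in TKO over all members at 18.01 and 14.7 against 81.2 and 80.5 in DKO, also had 0 UMIs in the 99 cells. Actn1, Acod1 and Lsmem1 had at most 6, 4 and 3 UMIs in any library once the 21 cells were left out.

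The last comparison asked whether NK cells and CD8 T cells of the same libraries differed between TKO and DKO in the same way, with an interaction test in edgeR and library as a block. With all cells of both classes, 7 of 8909 genes passed (0.0786%), among them the chemokines Ccl2 and Ccl7 and the stress gene Ier3. Ccl2 gave 156 and 77.3 CPM in NK members of TKO and 56.2 and 90.5 in NK members of DKO, beside 116 and 61.2 in CD8 T cells of TKO and 417 and 597 in CD8 T cells of DKO. In the CD8 T class 12 cells carried other-cell markers, and fibroblast and endothelial markers summed to 510 and 375 CPM in TKO and to 14396 and 11117 in DKO. Once such cells were left out of both classes these sums were 370 to 490, and the interaction of Ccl2 was 0.27 ± 0.54 on the log2 scale (SE, edgeR adjusted p = 1).

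With both classes so filtered, which was decided on with the data in view, 8 of 7207 genes passed (0.111%), 5 with the TKO over DKO change higher in NK cells and 3 with it lower. Klrk1 gave 325 and 330 CPM in NK cells of TKO and 223 and 278 in NK cells of DKO, but 54.4 and 40.8 in CD8 T cells of TKO and 282 and 164 in CD8 T cells of DKO. The change in NK cells exceeded that in CD8 T cells by 2.38 ± 0.40 on the log2 scale (SE, edgeR adjusted p = 0.0031). In CD8 T cells alone Klrk1 fell in TKO by 2.15 ± 0.31 (edgeR adjusted p = 0.021), while in NK cells it had a log2 fold change of 0.25 ± 0.26.

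Satb1, a chromatin organiser of lymphocytes, also passed. It gave 1000 and 911 CPM in NK cells of TKO and 334 and 655 in NK cells of DKO, but 236 and 229 in CD8 T cells of TKO and 758 and 590 in CD8 T cells of DKO. The interaction was 2.37 ± 0.36 (SE, edgeR adjusted p = 0.0015). Tbx21 differed by 1.98 ± 0.43 (edgeR adjusted p = 0.050, just under the threshold), with 64.1 and 61.2 in CD8 T cells of TKO and 123 and 149 in CD8 T cells of DKO. Areg differed the other way, by -4.48 ± 0.93 (edgeR adjusted p = 0.037). In CD8 T cells it gave 19.3 and 35.1 in TKO and 0 and 8.29 in DKO.

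Rad51b differed by 5.02 ± 1.06 (edgeR adjusted p = 0.037), at 48.2 and 53.2 CPM in CD8 T cells of TKO and 5.88 and 59.7 in CD8 T cells of DKO. The other 3 genes called were Fhl2, Epas1 and Odc1. With either DKO library left out 0 genes passed (edgeR, 400 and 820 at an unadjusted p under 0.05), against 21 without TKO replicate 1 and 3 without TKO replicate 2. A gene that passed in these fits is not read as upheld, since 1 group then holds 1 library. Klrk1, Satb1 and Tbx21 had a positive value in all 4 of these fits. Those fits share libraries with the fit that picked the genes, so the kept sign is not separate support. With both classes filtered, DKO replicate 1 held 5 NK cells and 12 CD8 T cells.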

How the data were processed

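Per the labels' protocols, cells were captured with the single cell 3' v3.1 chemistry of 10x Genomics, and per the submitters' processing notes Cell Ranger 7.0.0 and STAR were used with the mm10 build. The deposited values are raw counts (UMIs of a gene in a cell, not scaled by the authors), with 32285 genes and 6 hashtag features per the file headers. Of the gene IDs, 32235 matched GENCODE.

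Members and gene lists were chosen with earlier results of these data known, and support from a pattern already seen in these libraries is not independent. Doublets were not called, and cells carrying other-cell markers were set apart by a limit chosen after the data were seen. For tests, the counts of a class were added up in each library and fitted in edgeR 4.0.16 under R 4.3.3 (TMM scaling, filterByExpr, robust quasi-likelihood fit, group as the only term, Benjamini-Hochberg adjustment over all genes tested). Standard errors are the absolute log2 change divided by the square root of edgeR's quasi-likelihood F statistic. CD8 T cells entered an interaction fit with library as a block. Shares were compared by exact two-sided permutation tests (SciPy 1.17.1), with exact binomial intervals. Alternatives included DESeq2 1.42.0, RLE scaling, no filter, other member rules, thinning and leaving out each library. The tests were tried on simulated counts. Named genes were the rule's genes and markers, those with the smallest p under fixed conditions (5 each way), up to 4 per list by p, leading genes by level and leading interactions. Others, among them Areg, Satb1, Cxcr6, Inpp4b, Il21r and the 4 genes called in the 99 cells, were chosen after their values were seen. Every pair of libraries differed by more than counting noise (chi-square over its degrees of freedom, 4.03 to 7.22). One floxed allele of the model is not reported here.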

Additional observations from a re-analysis of the deposited data

Results flagged for a closer look

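The tests of whether the TKO against DKO change differs between NK cells and CD8 T cells passed for 3 named genes when all cells of both classes were used, namely Ccl2 (3.19 on the log2 scale, NK minus CD8 T), Ccl7 (3.98) and Ier3 (2.79). With cells carrying other-cell markers left out of both classes, Ccl2, Ccl7 and Ier3 gave 0.27, 0.39 and -0.29. In that filtered comparison 5 named genes passed, with Klrk1 at 2.38, Satb1 at 2.37, Tbx21 at 1.98, Rad51b at 5.02 and Areg at -4.48.

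A signal outside the main comparisons was seen in dendritic cells, of which 20.8% held a Klre1 UMI although Klre1 is one of the genes that define the NK rule. The highest count of a hashtag that belongs to no library was 39 in an NK member, below the count of that member's own hashtag.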

How the results depend on the processing

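The TKO minus DKO difference in NK share of kept cells was 1.21 percentage points, and leaving out each library in turn gave -0.46 to 2.88, lowest without DKO replicate 1. It was 1.79 with kept cells thinned to 2000 UMIs and 1.72 with a Cd3 sum of 0. The difference in share of lymphocytes was 2.57, with -0.74 to 5.88, again lowest without DKO replicate 1. The difference in the share with 3 or more division UMIs was -22.4, -8.56 with members thinned to 2000 UMIs and -20.3 without other-cell markers. It turned to 5.22 with that filter and thinning to 4000 UMIs together, which were added after seeing the data. Members with a division sum under 3 gave no value, since DKO replicate 1 held none.

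Against 0 calls (242 at an unadjusted p under 0.05), DESeq2 gave 3, no filter on low counts 104 and an NK sum of at least 3 gave 7, and leaving out each library gave 0 to 16. Without other-cell markers 4 genes were called, 13 with a replicate block as well, 14 to 154 with each library left out, and 0 of 2381 tested with the cells thinned to 4000 UMIs. For the interaction with CD8 T cells, 7 calls became 4 with RLE scaling, 132 with no filter, 0 to 35 with each library left out, and 62 with only NK cells filtered. With both classes filtered 8 became 0 to 21 with each library left out. A lone library is then assumed to vary like the others.

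Over 36 named genes and 628 values, 564 kept their direction and side of the threshold, 55 passed it newly and 9 turned sign. Xcl1 turned to -0.31 among cells with no UMI of 6 other-cell genes. Itgae turned to -1.31 without other-cell markers, to -1.62 with the replicate block as well, and to between -2.03 and -0.996 with each library left out, while over all members it stayed positive, up to 2.23. Cxcr6 turned to 0.77 without DKO replicate 2, and to 0.44 there without other-cell markers, and lay as low as -2.43 with another library left out. The cause was not tested.

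The numbers were not shown to pair libraries, with a correlation of deviations of -0.27 over 7425 genes. A replicate block over all members called 0 genes (210 at an unadjusted p under 0.05) and the crossed pairing, added after seeing the data, also 0 (281). In the 99 cells the block called Gzma (edgeR adjusted p = 0.036), which the fit without it did not. RLE scaling moved the median log2 fold change of all genes to -0.026, against -0.0099. DKO replicate 1, with 7 members, limits every comparison.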

Other observations

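Several NK receptor genes were also found in dendritic cells, a class outside the comparisons above. Among the 259 cells with a dendritic marker sum of 400 or more, Klrd1 (CD94) had a UMI in 178 (68.7%) and Klrk1 in 165 (63.7%), at 257 and 123 CPM. Among 1279 cells with a neutrophil marker sum of 100 or more, Klrd1 had a UMI in 40 (3.13%) and Klrk1 in 16 (1.25%). Median depth was 30009 UMIs in the dendritic cells and 7180 UMIs in the neutrophils. In the 99 NK cells Klrd1 was detected in 93 and Klrk1 in 94.

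A Trdc UMI, from the constant region of the T cell receptor delta chain, was present in 29 of the 99 NK cells. Of these, 23 had an Eomes UMI and 14 had 10 or more Gzma UMIs. Levels of Trdc were 29.4 and 46.7 CPM in NK cells of TKO and 33.4 and 29.0 in NK cells of DKO, against 225 to 433 in other Cd3 lymphocytes and 0 to 5.88 in CD8 T cells, all without cells carrying other-cell markers. Over the 99 cells thinned to 4000 UMIs, Gzma and Xcl1 had a Spearman rho of -0.20 as a description across cells of 4 libraries. Within libraries rho was -0.086 in TKO replicate 1 (37 cells), -0.26 in TKO replicate 2 (30 cells) and -0.38 in DKO replicate 2 (27 cells).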
